A study of Mus musculus with 12 samples.

Results

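The genes described here are 9 genes of the oligodendrocyte lineage, Olig1, Olig2, Sox10, Nkx2-2, Cspg4, Gpr17, Myrf, Mbp and Fa2h, out of 55401 genes listed for the cells of this study. They were chosen by name, from the transcription factors and surface proteins of precursors (6 genes) to the genes of the myelin stage (Myrf, Mbp and Fa2h, 3 genes), and they were picked with their values in these samples already known. Their levels and the effect of NAD+ on them are therefore given as a description, and the counts of them past a threshold support nothing. The choice of the 9 did not use 36 other genes of the lineage, which are given with their tests, but these too were listed with earlier results known. The study cultured adult neural stem/progenitor cells (aNSPCs) from the forebrain of C57BL/6 mice aged 8 to 10 weeks and asked what NAD+ (nicotinamide adenine dinucleotide), added to the medium, does to their transcriptome. RNA was sequenced from 4 groups of 3 samples. Proliferating Ctrl and Proliferating NAD+ cells were kept dividing, without or with 1 mM NAD+. Differentiation Ctrl and Differentiation NAD+ cells were given 1 µM retinoic acid and 5 µM forskolin, again without or with 1 mM NAD+. All 4 groups came from the same strain, and the labels name no genetic change and do not say how many mice gave the cells. The treatment field of the labels lists all 12 samples as untreated, so the groups follow the sample titles, 6 of which name NAD+.

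Oligodendrocytes wrap axons of the central nervous system in myelin. They arise from dividing precursor cells, which pass through a committed stage with short-lived markers before they switch on the genes of myelin. OLIG1 and OLIG2 are basic helix-loop-helix factors of the lineage, and OLIG2 also acts in neural progenitors. SOX10 and NKX2-2 are the transcription factors that accompany commitment and the start of differentiation, CSPG4 (NG2) is a proteoglycan on the surface of precursors, and GPR17 is a receptor that is transient in committed precursors. MYRF is the transcription factor required for myelin gene expression, MBP is a structural protein of the myelin sheath, and FA2H is the enzyme that hydroxylates fatty acids of myelin lipids. Neural stem cells of the adult forebrain can give rise to this lineage beside neurons and astrocytes.

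OLIG1 and OLIG2 bind E-boxes (CANNTG) and SOX10 binds sites of the SOX type (ACAAT, or ATTGT on the other strand). The stretch from 250 to 101 bases before the start site of RefSeq (GRCm38.p6) was given for 3 of the 9 genes, Cspg4, Nkx2-2 and Olig2, and these letters were searched in it on both strands. The sequences run 5′ to 3′ on the strand of the gene, capitals mark the matches, and no match overlapped another. They are shown to give the sequence ahead of the start of 3 early genes that stood at different shares of Ctrl with NAD+ under differentiation conditions, 95.7% for Cspg4, 60.7% for Nkx2-2 and 85.7% for Olig2.
Cspg4, chr9:56864854-56865003, plus strand: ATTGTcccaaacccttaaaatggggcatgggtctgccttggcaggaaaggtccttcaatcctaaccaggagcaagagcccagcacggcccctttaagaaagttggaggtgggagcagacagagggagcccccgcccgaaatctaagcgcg
Nkx2-2, chr2:147186503-147186652, minus strand: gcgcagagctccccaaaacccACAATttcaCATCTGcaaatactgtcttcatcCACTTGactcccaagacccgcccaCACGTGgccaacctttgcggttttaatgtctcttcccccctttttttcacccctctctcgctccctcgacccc
Olig2, chr16:91225300-91225449, plus strand: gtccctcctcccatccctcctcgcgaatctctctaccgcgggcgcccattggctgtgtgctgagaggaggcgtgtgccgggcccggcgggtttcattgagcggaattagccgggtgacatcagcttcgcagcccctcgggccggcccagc
The Nkx2-2 window held 3 E-boxes and 1 match of the SOX type. The Cspg4 window held 0 E-boxes and 1 match of the SOX type, and the Olig2 window held 0 of either. Of 32817 windows of the same 150 bases, 49.3% held an E-box and 18.6% a match of the SOX type. The Nkx2-2 window lies inside the gene as GENCODE gives it, whose start is upstream of that of RefSeq. For Cspg4 and Olig2 the GENCODE start is also upstream of that of RefSeq. It lies just past the end of the window, at 56865033 and 91225457. A match describes the letters and is not a binding site.

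Levels are given in FPKM, the number of fragments of a gene per kilobase of its length and relative to all fragments mapped in the sample, so that genes of different length can be compared. The authors deposited these values rounded to 0.01, and they hold no sequencing depth. Over all genes they summed to between 308828 and 363330. Proliferating Ctrl 1 was the highest sample, and the other proliferating samples had 314683 or below. Differentiation NAD+ 1 had 349649, and the other differentiation samples had 336898 or below. Across genes Proliferating Ctrl 1 correlated with the other Proliferating Ctrl samples at r = 0.949 and 0.950, against 0.971 between those 2. The results in proliferating cells are therefore also given without it. In bulk RNA, fewer cells of a type and less RNA per cell cannot be told apart. The study calls the samples of a group biological repeats, but neither it nor the labels say whether they came from separate mice or cultures, and p-values measure the spread between these samples.

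In proliferating aNSPCs without NAD+, Olig1 and Olig2 were abundant and the 3 myelin stage genes were at 1.57 FPKM or below. Olig1 had 1044.23, 897.3 and 941.64 FPKM in the 3 Proliferating Ctrl samples and was the highest of the 9 genes. Olig2 followed with 305.81, 342.1 and 353.45 FPKM, and Gpr17 with 43.29, 54.06 and 44.78 FPKM. Each of these genes was separated from the next by a gap between their ranges. Below them lay Nkx2-2 at 15.3 ± 1.29 FPKM (SD, n = 3), Cspg4 at 10.6 ± 2.19 FPKM (SD, n = 3) and Sox10 at 5.34 ± 2.51 FPKM (SD, n = 3), and the ranges of Cspg4 and Sox10 overlapped. The 3 myelin stage genes came last. Fa2h had 1.57, 1.06 and 0.73 FPKM, Myrf 0.82, 0.96 and 0.72 FPKM, and Mbp 0.76, 0.46 and 0.45 FPKM, and the ranges of these neighbours overlapped. The order of the 9 genes by mean FPKM was the same in the Proliferating NAD+ samples.

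Under differentiation conditions the order was different, with Gpr17 at the top. In Differentiation Ctrl, Gpr17 had 329.2, 386.27 and 352.91 FPKM, all above Olig1 with 231.72, 210.76 and 229.32 FPKM and Olig2 with 120.03, 112.65 and 120.61 FPKM. Myrf had 7.44, 9.43 and 7.59 FPKM, Mbp 4.89, 6.86 and 4.37 FPKM, and Fa2h 11.7, 15.51 and 13.12 FPKM. Each Differentiation Ctrl sample was thus far above each proliferating sample for all 3 myelin stage genes. Fa2h overlapped Nkx2-2 (15.7 ± 0.841 FPKM, SD, n = 3) in range, and Myrf overlapped Cspg4 (8.25 ± 0.680 FPKM, SD, n = 3). Sox10 (9.21 ± 1.59 FPKM, SD, n = 3) and Cspg4 also overlapped.

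**Figure D1:**
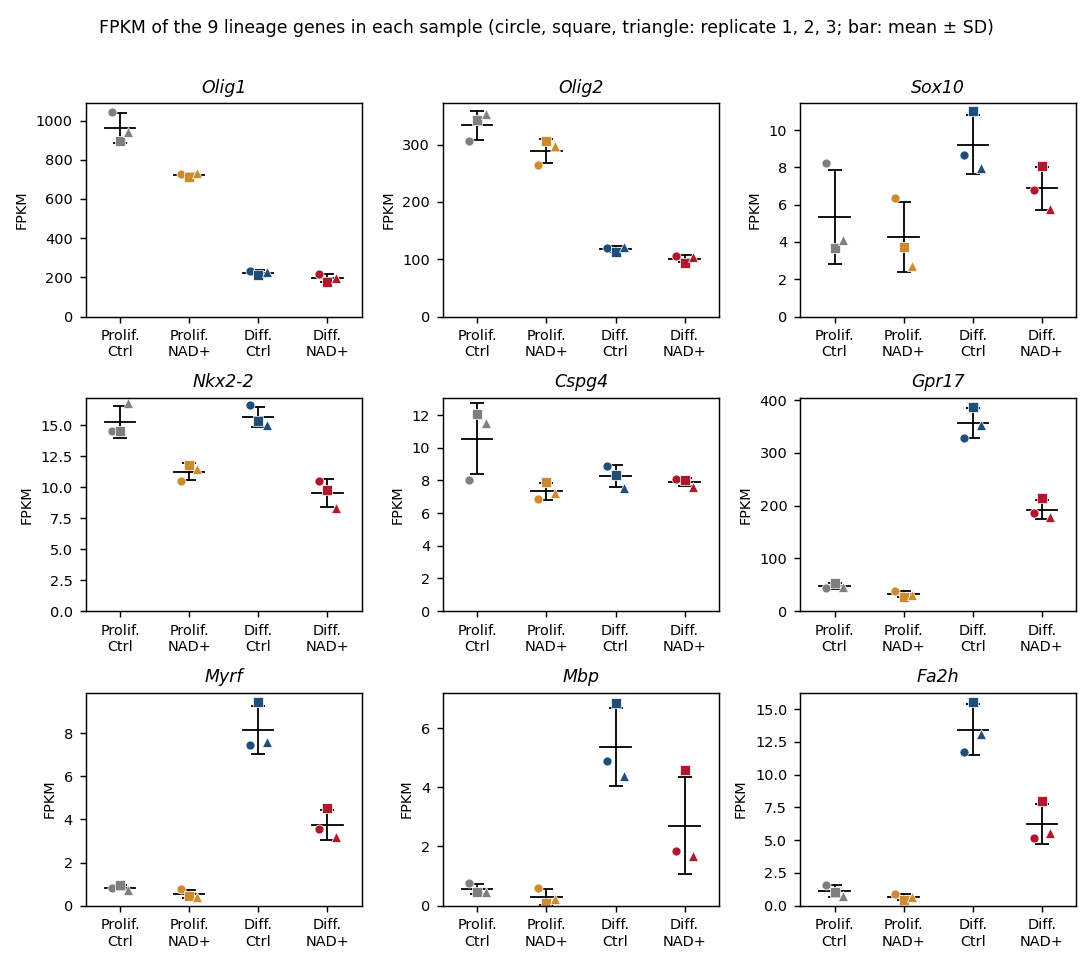
FPKM (vertical axes, from 0) of the 9 lineage genes in each of the 12 samples, by group, with the replicate number as the symbol and the mean ± SD of 3 samples as bars. Olig1 and Olig2 are highest in the proliferating groups and Gpr17, Myrf, Mbp and Fa2h in Differentiation Ctrl, and the Differentiation NAD+ samples of Gpr17, Myrf and Fa2h all lie below the Differentiation Ctrl samples.

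The levels of the 2 conditions come from separate tables whose common scaling is not stated, so they are compared as ratios of group means and without a test. Among the Ctrl samples, 4 of the 9 genes were more than 2-fold higher under differentiation conditions than under proliferating conditions, against 19.7% of 19498 genes, and 2 of the 9 were more than 2-fold lower, against 16.9%. The 4 higher genes were Gpr17 (7.52-fold), Mbp (9.65-fold), Myrf (9.78-fold) and Fa2h (1.12 against 13.4 FPKM, the largest ratio of the 9). The 2 lower genes were Olig1, 4.29-fold lower, and Olig2, 2.83-fold lower. In none of these 6 genes did the samples of the conditions overlap. Sox10 (1.73-fold), Nkx2-2 (1.02-fold) and Cspg4 (0.782-fold) overlapped between the conditions. The same 4 and 2 genes passed 2-fold in the NAD+ samples, where the myelin stage ratios were smaller, with 6.94-fold for Myrf, 8.92-fold for Mbp and 9.12-fold for Fa2h. The numbers of genes past 2-fold stayed at 4 and 2 when the 12 samples were scaled together by median ratios or by quantiles, alternatives chosen after the data were seen.

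Among the 36 other lineage genes, 21 were more than 2-fold higher in Differentiation Ctrl than in Proliferating Ctrl, against 19.7% of 19498 genes. Another 2 were more than 2-fold lower, against 16.9%. The 36 include genes too low for the 0.1 FPKM filter behind these shares, such as Ermn, 1 of the 2 lower genes (0.053 to 0.017 FPKM). The other lower gene was Aspa, of the myelin and mature list and named after its values were seen. It went from 3.8 to 1.39 FPKM without overlap. The 21 include Bmp4 and Mog, which were listed at 0 in Proliferating Ctrl and averaged 0.397 and 0.06 FPKM in Differentiation Ctrl, so that they have no ratio. The median ratio was 1.31 for the 10 precursor genes. It was 2.77 for the 7 genes of newly formed oligodendrocytes with a ratio, or 5.10 with Bmp4 counted as the highest, and 2.41 for 17 genes of myelin and mature oligodendrocytes, or 2.52 with Mog counted in the same way. Bcas1, a marker of early myelinating cells, went from 15.6 to 116 FPKM. Mog, a protein of the outer surface of mature myelin, was at 0.22 FPKM or below in all 12 samples. Ermn, a cytoskeletal protein of mature oligodendrocytes, was at 0.06 FPKM or below. Both were named after their values were seen and do not stand for their list. Of its 18 genes, 12, Mog among them, were more than 2-fold higher in Differentiation Ctrl and 2 more than 2-fold lower. Mag went from 0.08 to 3.28 FPKM.

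NAD+ was compared with Ctrl in proliferating cells, the state in which Olig1 and Olig2 were high. The mean of all 9 genes was lower with NAD+, by 0.21 to 0.88 on the log2(FPKM + 0.1) scale, which understates the change of low genes such as Myrf, Mbp and Fa2h. Olig1 had 725.29, 712.57 and 732.26 FPKM with NAD+ and Gpr17 had 38.07, 26.95 and 29.78 FPKM. Both were below every Ctrl sample, with means at 75.3% and 66.7% of Ctrl. Nkx2-2 had 10.48, 11.82 and 11.44 FPKM against 14.52, 14.56 and 16.77 FPKM in Ctrl, also without overlap (73.6% of Ctrl). Olig2 had 264.8, 305.47 and 297.0 FPKM with NAD+, only just below its lowest Ctrl sample. Cspg4 had 6.89, 7.92 and 7.21 FPKM against 8.04, 12.08 and 11.54 FPKM, and its groups too were separated by a small gap.

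The remaining 4 genes, Sox10, Myrf, Mbp and Fa2h, overlapped between the proliferating groups. In Sox10, replicate 1 was the highest sample of both groups, at 8.23 FPKM in Ctrl and 6.37 FPKM with NAD+, and the others lay between 2.7 and 4.09 FPKM. Mbp and Fa2h were also highest in replicate 1 of both groups. With NAD+, Myrf had 0.77, 0.47 and 0.38 FPKM, Mbp 0.6, 0.09 and 0.22 FPKM, and Fa2h 0.92, 0.44 and 0.68 FPKM. Every NAD+ sample lay below every Ctrl sample in 5 of the 9 genes, all of them early genes, against 8.59% of 18597 tested genes. In limma with Benjamini-Hochberg adjustment over all tested genes, 0 of the 9 genes passed an adjusted p of 0.05. As lower with NAD+, 0.0968% of tested genes did so. An unadjusted p under 0.05 was found for 4 of the 9 genes, against 2864 of the 18597 tested genes. The median log2 fold change was -0.50 over the 9 genes and 0.07 over all tested genes. Without Proliferating Ctrl 1, Sox10 was at 0.04 in place of -0.31, Fa2h at -0.38 in place of -0.63, Cspg4 at -0.68 in place of -0.50, and the other 6 genes lay between -0.67 and -0.27.

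Under differentiation conditions, the state in which the myelin stage genes were high, NAD+ was compared with Ctrl in the same way. The 3 myelin stage genes were at about the same share of Ctrl with NAD+, 46.0% for Myrf, 46.1% for Fa2h and 50.4% for Mbp, while Cspg4 stood at 95.7%. Myrf had 3.54, 4.52 and 3.19 FPKM with NAD+ and Fa2h 5.14, 7.95 and 5.51 FPKM, all below every Ctrl sample. Mbp had 1.85, 4.59 and 1.68 FPKM, and its replicate 2 with NAD+ lay above the Ctrl sample of 4.37 FPKM, so its groups overlapped. The log2 fold changes were -1.11 for Myrf (standard error 0.15), -1.12 for Fa2h (standard error 0.18) and -1.08 for Mbp (standard error 0.39).

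Of the 6 early genes, Gpr17 and Nkx2-2 were clearly separated between the groups and the others less so or not at all. Gpr17 had 185.31, 213.66 and 178.94 FPKM with NAD+, 54.1% of Ctrl, a log2 fold change of -0.89 (standard error 0.09). Nkx2-2 had 10.49, 9.73 and 8.29 FPKM against 16.61, 15.32 and 15.03 FPKM in Ctrl, 60.7% of Ctrl, a log2 fold change of -0.72 (standard error 0.10). For both genes the gap between the groups was wider than the range of either group. Olig2 had 105.37, 93.47 and 104.09 FPKM with NAD+, below every Ctrl sample but at 85.7% of Ctrl. Olig1 (214.92, 177.4 and 197.66 FPKM with NAD+) overlapped Ctrl by 1 sample at 87.8% of Ctrl. Sox10, with 6.78, 8.06 and 5.79 FPKM against 8.66, 11.0 and 7.97 FPKM, overlapped at 74.7% of Ctrl, and Cspg4, with 8.06, 8.03 and 7.61 FPKM against 8.88, 8.35 and 7.53 FPKM, overlapped almost fully.

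Gpr17, Nkx2-2, Myrf and Fa2h, 4 of the 9 genes, passed an adjusted p of 0.05 in limma, all as lower, where 4.65% of 19611 tested genes were lower with NAD+ by the same rule. Every NAD+ sample was below every Ctrl sample in 5 of the 9 genes, against 21.1% of tested genes. The genes were chosen with these values known, so nothing is read from these counts. The median log2 fold change was -1.11 over the 3 myelin stage genes, -0.32 over the 6 early genes and -0.08 over all tested genes. Cspg4, at -0.06, turned to 0.02 and 0.01 when the samples were scaled by median ratios or by quantiles. Without Differentiation Ctrl 1 only Gpr17 passed, and without Differentiation Ctrl 2 only Gpr17 and Myrf, whereas without Differentiation NAD+ 2 Mbp passed as well, which made 5 genes.

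**Figure D2:**
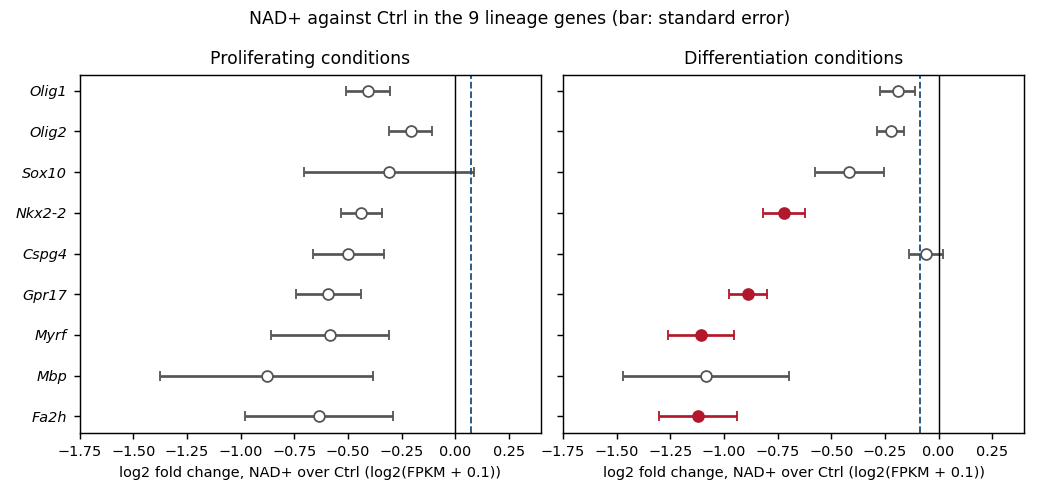
Log2 fold change of NAD+ over Ctrl on the log2(FPKM + 0.1) scale (horizontal axis, bars are standard errors of limma) for the 9 genes in proliferating and differentiation conditions, with filled red symbols for an adjusted p under 0.05 and a dashed line at the median of all tested genes. Under differentiation conditions Myrf, Mbp and Fa2h lie between -1.12 and -1.08 and Cspg4 lies at -0.06, and no gene is filled under proliferating conditions.

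The early and late ends of the lineage were then set against each other within each sample. The mean log2(FPKM + 0.1) of the 6 early genes was lower with NAD+ by nearly the same amount in both conditions, from 5.59 to 5.18 in proliferating cells and from 5.57 to 5.15 under differentiation conditions. This mean joins unlike genes, with log2 fold changes from -0.59 to -0.21 in proliferating cells and from -0.89 to -0.06 under differentiation conditions. The mean of the 3 myelin stage genes went from -0.17 ± 0.30 to -0.87 ± 0.58 (SD, n = 3) in proliferating cells and from 3.07 ± 0.23 to 1.97 ± 0.45 (SD, n = 3) under differentiation conditions. The early means did not overlap between Ctrl and NAD+ in either condition, and the myelin stage means overlapped only in proliferating cells. Myelin stage minus early was -2.65, -2.27 and -2.57 in Differentiation Ctrl and -3.46, -2.70 and -3.39 in Differentiation NAD+. The NAD+ samples were thus all lower, by 0.69 on average, and replicate 2 was the highest of both groups. In proliferating cells the values were -5.48, -5.74 and -6.06 in Ctrl and -5.51, -6.53 and -6.11 with NAD+, which overlapped. That mean difference of -0.29 turned to 0.10 when 1 in place of 0.1 was added before the log, and was -0.15 without Proliferating Ctrl 1.

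**Figure D3:**
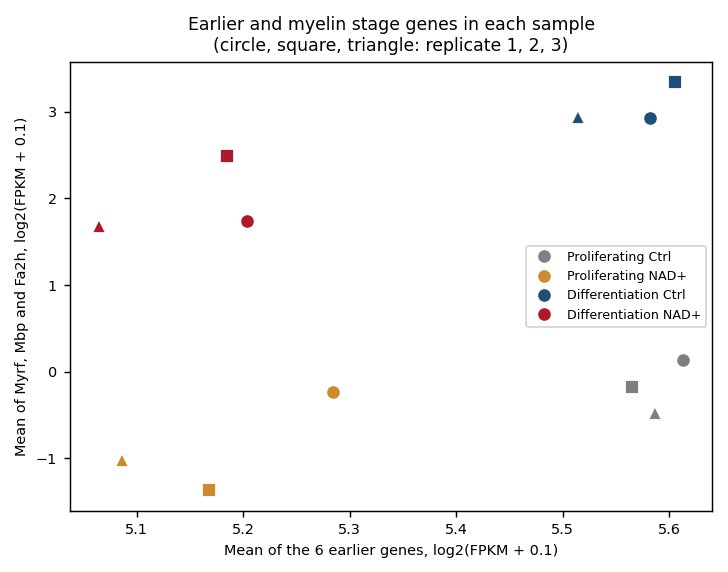
Mean log2(FPKM + 0.1) of the 3 myelin stage genes (vertical axis) against that of the 6 early genes (horizontal axis) in each of the 12 samples, with colours for the groups and symbols for the replicate numbers. Ctrl samples of both conditions lie at 5.51 or above on the horizontal axis and NAD+ samples at 5.28 or below, and the Differentiation Ctrl samples are the highest on the vertical axis, at 2.93 to 3.34.

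Whether the effect of NAD+ differs between the conditions was asked with a contrast over all 12 samples. None of the 9 genes (0) passed an adjusted p of 0.05 in limma, where 0.467% of 19498 tested genes did. An unadjusted p under 0.05 was found for 1 of the 9, Cspg4, against 3023 of the 19498 tested genes, so nothing is read from it. The effect in differentiation minus that in proliferating cells was 0.44 for Cspg4 (standard error 0.19), 0.22 for Olig1 (standard error 0.12) and -0.02 for Olig2 (standard error 0.12). It was -0.52 for Myrf (standard error 0.31), -0.49 for Fa2h (standard error 0.41) and -0.21 for Mbp (standard error 0.67), beside a median of -0.16 over all tested genes. Without Proliferating Ctrl 1, the difference of Cspg4 was 0.62 and passed. A larger effect on the myelin stage in differentiation was therefore not shown for any of the 3 genes, whose levels in proliferating cells were low.

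The other genes of the lineage, which were not used to choose the 9, were tested in the same fits, although their lists too were drawn up with earlier results of these data known. Under differentiation conditions 34 of the 36 could be tested, 32 of them were below 0 and 14 passed an adjusted p of 0.05, all lower with NAD+, against 4.65% of all tested genes. By stage, 2 of 10 precursor genes, 5 of 8 genes of newly formed oligodendrocytes and 7 of 16 genes of myelin and mature oligodendrocytes passed, with median log2 fold changes of -0.15, -0.59 and -0.68. Every NAD+ sample was below every Ctrl sample in 23 of the 34 genes, against 21.1% of all tested genes. In proliferating cells 30 could be tested, 26 were below 0, and every NAD+ sample was below every Ctrl sample in 10, against 8.59%. In limma 0 of the 30 passed, while 11 had an unadjusted p under 0.05, against 2864 of the 18597 tested genes. The calls under differentiation conditions numbered 5 or 6 when any 1 of the 3 Ctrl samples or NAD+ replicate 1 or 3 was left out, and 11 without NAD+ replicate 2, and all of these were among the 14. They numbered 10 with median-ratio scaling, again all among the 14. Over all tested genes, calls in either direction were 1357 of 19611 in the main fit and 1145 of 19562 with that scaling. Of the genes named below, Tnr, Vcan and Enpp2 passed with every other pseudocount, filter and scaling tried, with the replicate block and without any 1 sample.

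Among the precursor genes, the most abundant did not pass under differentiation conditions. Ptprz1, a receptor phosphatase, had 103.0, 104.83 and 109.37 FPKM in Ctrl and 101.4, 99.16 and 106.12 FPKM with NAD+. Its groups overlapped (log2 fold change -0.05, adjusted p = 0.585 from limma). The matrix genes Tnr, for tenascin-R, and Vcan, for the proteoglycan versican, fell. Tnr went from 80.84, 91.73 and 82.06 FPKM to 43.52, 52.37 and 41.31 FPKM (log2 fold change -0.90, standard error 0.10, adjusted p = 0.00809) and Vcan from 18.16, 19.64 and 19.53 FPKM to 10.17, 10.82 and 9.57 FPKM (log2 fold change -0.90, standard error 0.07, adjusted p = 0.00361). Pdgfra, the growth factor receptor of precursors and named here after its values were seen, was at 4.46 ± 0.567 FPKM in Ctrl and 3.93 ± 0.215 FPKM with NAD+ (SD, n = 3) and overlapped.

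Lhfpl3, a membrane protein gene typical of precursors, was the gene of the wider lists whose response differed between the conditions. In proliferating cells it had 45.47, 47.58 and 49.82 FPKM in Ctrl and 32.64, 31.16 and 32.47 FPKM with NAD+. Under differentiation conditions it had 57.45, 57.75 and 62.2 FPKM in Ctrl and 59.44, 58.95 and 60.95 FPKM with NAD+. The proliferating groups were far apart and the differentiation groups overlapped, with log2 fold changes of -0.57 (adjusted p = 0.0583) and 0.02 (adjusted p = 0.873). The difference of the effects was 0.58 (standard error 0.08, limma adjusted p = 0.0177), the call of 1 gene among the 34 tested. With the replicate number as a block its adjusted p was 0.0648, and it also missed 0.05 without any 1 of 5 samples, Proliferating NAD+ 2 and 3, Differentiation Ctrl 1 and 2 and Differentiation NAD+ 3.

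Newly formed oligodendrocytes are marked by genes that are active for a short time between precursor and myelinating cell. Enpp6, a choline phosphodiesterase of this stage, went from 19.14, 26.68 and 20.15 FPKM to 7.37, 10.64 and 6.48 FPKM under differentiation conditions, a fall to 37.1% of Ctrl (log2 fold change -1.43, standard error 0.21, limma adjusted p = 0.0153). Neu4, a sialidase, fell from 3.65 to 1.73 FPKM (log2 fold change -1.05, adjusted p = 0.0270). Smaller falls were found for the calcium channel gene Itpr2 (-0.67, adjusted p = 0.0297), the zinc finger gene Zfp488 (-0.51, adjusted p = 0.0297) and the Src family kinase gene Fyn (-0.48, adjusted p = 0.0360). Zfp488 did not pass with median-ratio or quantile scaling (adjusted p = 0.0597 and 0.0653), nor did Fyn with no filter on low values or with median-ratio scaling (adjusted p = 0.0556 and 0.0683). Without 1 of the 6 samples in turn, Neu4, Itpr2, Zfp488 and Fyn each missed 0.05 in 5 of 6 fits and Enpp6 in 4. Bcas1 had 94.53, 126.17 and 126.3 FPKM in Ctrl and 63.1, 82.3 and 41.35 FPKM with NAD+, without overlap, yet its spread left it above the threshold (log2 fold change -0.94, adjusted p = 0.0833). Tcf7l2 and Bmp4, named after their values were seen, had log2 fold changes of -0.28 and -0.11 and did not pass.

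Of the myelin and mature genes, Cnp, an enzyme of the non-compact myelin and already at 44.9 FPKM in Proliferating Ctrl, had 109.61, 130.44 and 112.95 FPKM in Differentiation Ctrl and 66.9, 81.68 and 69.18 FPKM in Differentiation NAD+. It fell to 61.7% of Ctrl with no overlap (log2 fold change -0.70, standard error 0.10, limma adjusted p = 0.0147). The genes of 2 enzymes of the myelin galactolipids also fell, Ugt8a by 0.81 and Gal3st1 by 1.14 on the log2 scale (adjusted p = 0.0280 and 0.0149). Enpp2 (autotaxin) fell by 0.90, the connexin Gjc3 by 0.52 and Opalin, a late membrane protein at only 0.560 FPKM in Ctrl, by 1.30 (adjusted p = 0.00445, 0.0275 and 0.0485). Opalin missed 0.05 in 5 of the 6 alternatives that gave it a value, replicate block included, and in all 6 fits without 1 sample (adjusted p = 0.0847 to 0.149). Gjc3 missed it with median-ratio scaling (adjusted p = 0.0502) and in 5 of 6 fits without 1 sample, Ugt8a in 4, Gal3st1 in 3 and Cnp in 2. Mag, an adhesion protein of the inner myelin, named after its values were seen, had 2.98, 3.96 and 2.89 FPKM against 1.74, 2.36 and 1.82 FPKM with NAD+ and did not pass (log2 fold change -0.70, adjusted p = 0.0630). Mobp, also named afterwards, was the only tested gene of this list above 0 (0.39), from values of 0.03 to 0.42 FPKM.

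**Figure D4:**
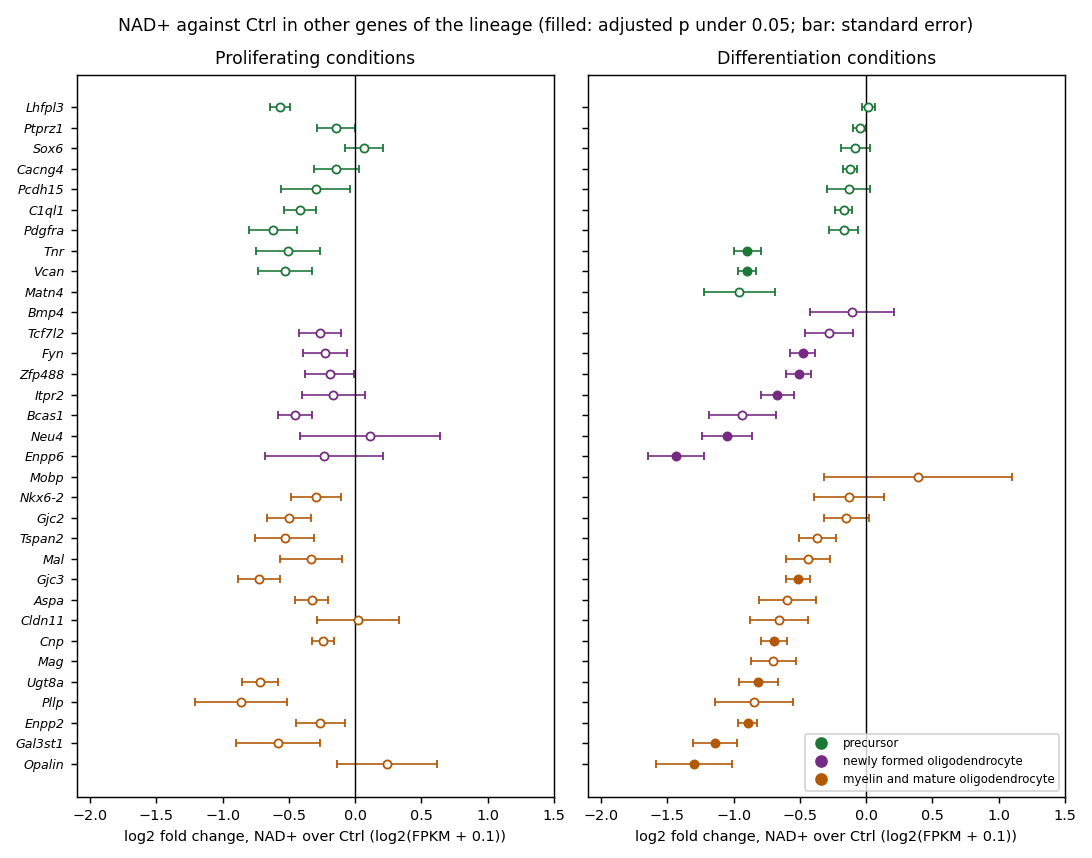
Log2 fold change of NAD+ over Ctrl on the log2(FPKM + 0.1) scale (horizontal axes, bars are standard errors of limma) for the other lineage genes that could be tested and are reported here, coloured by list, with filled symbols for an adjusted p under 0.05. The filled symbols are all in the differentiation panel, on the left of 0, from Enpp6 at -1.43 to Fyn at -0.48.

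The genes whose pattern over the 12 samples was most like the mean of Myrf, Mbp and Fa2h were sought among 11648 genes. The measure was the root mean square difference of centred log2(FPKM + 0.1) values. Only genes with a mean of at least 1 FPKM in both conditions were compared. Lineage genes that were low in proliferating cells, such as Enpp6 and Mag, were therefore left out. Among the closest were Gpr17 (0.29), Col9a1 (0.32), Bcas1 (0.32), Nfasc (0.35), Tubb4a (0.37), Tnr (0.42), Igfbp5 (0.45) and Wnt5b (0.48). Col9a1, a collagen gene, had mean levels of 1.25 and 0.810 FPKM in the proliferating groups and 8.86 and 4.05 FPKM in the differentiation groups, Ctrl before NAD+. Nfasc, an axonal and glial adhesion protein, went from 3.06 and 2.38 to 20.9 and 15.2 FPKM in the same order. Tubb4a, a tubulin gene, went from 6.26 and 4.09 to 37.6 and 19.7 FPKM. Igfbp5 went from 52.3 and 38.9 to 325 and 288 FPKM, and Wnt5b from 1.57 and 1.45 to 15.7 and 12.1 FPKM. Under differentiation conditions these 2 stood closer to Ctrl with NAD+ than Myrf, Mbp and Fa2h did. Cspg4, Olig1 and Olig2 were not among these genes. The measure takes in the step between the conditions, whose common scaling is not stated, as well as the effect of NAD+. The 12 samples share their cell type and sequencing and fall into 4 groups, so the likeness is a description.

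Some of the 9 genes are also expressed outside the lineage, so lists of other cell types were read beside them, 5 genes each. Schwann cells express Sox10 and Mbp, and their list summed to between 6.20 and 9.69 FPKM in proliferating cells, to 16.9 to 18.1 FPKM in Differentiation Ctrl and to 16.5 to 17.5 FPKM in Differentiation NAD+, most of it from the cadherin gene Cdh19, which did not pass under differentiation conditions (log2 fold change -0.03, adjusted p = 0.810). Pericytes carry Cspg4, and their list, led by Vtn, summed to between 0.31 and 0.46 FPKM in proliferating cells. Under differentiation conditions it summed to 1.20 to 1.40 FPKM in Ctrl and 1.78 to 2.27 FPKM with NAD+, and Kcnj8, a channel gene of pericytes, rose from 0.130 to 0.587 FPKM (log2 fold change 1.54, limma adjusted p = 0.0280). The test of Kcnj8 missed 0.05 in 5 of 6 fits without 1 sample, at adjusted p up to 0.0862. The microglia list, led by P2ry12, summed to 0.3 FPKM or below and the endothelial list, led by Flt1, to 0.76 FPKM or below in all samples.

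Other neural genes moved beside the lineage genes. The astrocyte list summed to 1175 to 1257 FPKM in Differentiation Ctrl and 1569 to 1695 FPKM in Differentiation NAD+, without overlap. In it the filament gene Gfap had 597.66, 545.96 and 642.12 FPKM against 998.61, 965.04 and 967.03 FPKM and rose (log2 fold change 0.72, limma adjusted p = 0.00613), as did the glutamate transporter gene Slc1a3 (0.36, adjusted p = 0.0103), while the folate enzyme gene Aldh1l1 fell (-0.61, adjusted p = 0.00494). The water channel gene Aqp4 (-0.31, adjusted p = 0.0733) and the connexin gene Gja1 (-0.46, adjusted p = 0.496), the other 2 genes of the list, did not pass. The median log2 fold change of the 5 genes was -0.31, although their sum, in which Gfap was the most abundant gene, was higher. Slc1a3 missed 0.05 without Differentiation Ctrl 1 (adjusted p = 0.0552). Of the neural stem cell list, the Notch target Hes5 fell from 16.2 to 8.75 FPKM (log2 fold change -0.89, adjusted p = 0.0150) while Pax6, at -0.39 on the log2 scale, passed narrowly (adjusted p = 0.0401). Pax6 missed 0.05 with no filter (adjusted p = 0.0598), with median-ratio and quantile scaling (adjusted p = 0.0903 and 0.0964) and in all 6 fits without 1 sample, and Hes5 missed it in 3 of those fits. Nes, an intermediate filament gene, was at 119% of Ctrl with NAD+ in proliferating cells and at 117% under differentiation conditions, and Sox2 at 96.1% and 91.7%, and neither passed. Fabp7, the fatty acid binding protein of radial glia, stood at 2107 FPKM in Proliferating Ctrl and 1317 FPKM in Proliferating NAD+ and did not pass (log2 fold change -0.70, adjusted p = 0.157). The stem cell markers Sox2 (225 FPKM) and Nes (68.8 FPKM) were present in Proliferating Ctrl, and the neuron list summed to 21.2 to 34.5 FPKM over all samples. Its leading gene Map2 did not pass (log2 fold change 0.04 under differentiation conditions, adjusted p = 0.711). Of the 5 genes of the neuron list, 2 were above 0 and 3 below under differentiation conditions, with a median of -0.07, and 0 passed. Among the 3 was Tubb3 (log2 fold change -0.28, limma adjusted p = 0.288), named after its values were seen. The part of any of these cell types in the levels of the 9 lineage genes was not tested.

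The position and neighbours of the genes bear on how their reads could be counted, since the strand setting of the counting is not given in the sources used here. Positions are those of GENCODE M21 on GRCm38, the assembly of mm10, in which 55141 of the 55401 gene IDs were found. Olig2 (chromosome 16, from 91225457 to 91228677, plus strand) and Olig1 (chromosome 16, from 91269772 to 91271933, plus strand) lie 41094 bases apart. Nkx2-2 (chromosome 2, from 147177546 to 147194243, minus strand) shares 278 of its 2875 exon bases (9.67%) with the opposite gene Nkx2-2os, which averaged 0.570 FPKM. Gpr17 (chromosome 18, from 31942997 to 31949636, minus strand) shares 188 of 5195 exon bases (3.62%) with the opposite gene Lims2, at 6.56 FPKM, and Olig1 shares 157 of 2162 (7.26%) with Gm15966, at 0.004 FPKM. Sox10 (chromosome 15, from 79154908 to 79165240, minus strand), Cspg4 (chromosome 9, from 56865033 to 56899870, plus strand), Fa2h (chromosome 8, from 111345135 to 111393824, minus strand), Myrf (chromosome 19, from 10208272 to 10240748, minus strand) and Mbp (chromosome 18, from 82475146 to 82585637, plus strand) share no exon bases with another gene of that annotation.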

How the data were processed

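RNA-seq was performed on 12 samples of cultured mouse aNSPCs. The authors used Hisat2 (v2.0.5, mm10) for mapping and FeatureCounts (v2.0.1) for counting uniquely mapped reads, and deposited FPKM values per sample, in 1 table per condition. The program that made the FPKM values is not given in the sources used here. The tables also hold the authors' own fold changes, p-values and q-values, which were not used.

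The deposited FPKM values were put on a log2(FPKM + 0.1) scale. A gene was tested when its mean was 0.1 FPKM or more. limma 3.58.1 (R 4.3.3, variance trend, two-sided) compared NAD+ with Ctrl within each condition and, over all 12 samples, the effects between conditions, with Benjamini-Hochberg adjustment over all tested genes. The code was tested on simulated data. The 9 genes and all gene lists were chosen with earlier results of these data known. Named genes were the 9, the 3 of highest mean FPKM and up to 4 further called genes of each lineage list, and the highest and any called gene of each marker list. Some of the named genes are not reported here, though counts and sums over a list include them. Alternatives were other pseudocounts (1, 0.01), filters (none, a mean of 1 FPKM), median-ratio and quantile scaling, a replicate block, the study's rule (unadjusted p under 0.05 and over 2-fold) and leaving out each sample. That rule was applied with the limma p-values and ratios of mean FPKM, not with the authors' own values. Python 3.11.15, pandas 2.3.3 and matplotlib 3.10.9 made the tables and figures.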

Additional observations from a re-analysis of the deposited data

Results flagged for a closer look

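Of the genes named, Lhfpl3 alone had a response to NAD+ that differed between the conditions by a test of the difference itself. The difference was 0.58 on the log2 scale (higher in differentiation minus proliferating, limma adjusted p = 0.0177). By the same test 0.467% of 19498 tested genes passed. In proliferating cells all 3 NAD+ samples lay below all 3 Ctrl samples, and under differentiation conditions the groups overlapped. Over the 12 fits that each left out 1 sample the difference lay between 0.55 and 0.62, and the adjusted p missed 0.05 in 5 of the 12, as it did in the blocked fit (0.0648). The test for an outlying sample within a group was not made, since it needs more than 3 samples a group.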

How the results depend on the processing

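Of the log2 fold changes of the 9 genes under the alternatives, 218 kept their direction and side of the threshold, 8 lost and 2 gained a call, and 3 changed sign. The changes of sign were Cspg4 under differentiation conditions with median-ratio (0.023) and quantile scaling (0.010), and Sox10 in proliferating cells, whose range without each sample in turn was -0.64 to 0.044. Of the other named genes, 611 kept direction and side, 76 lost and 3 gained a call, and 14 changed sign. These were Cdh19 (0.057 and 0.034) and Ptprz1 (0.035 and 0.0074) under differentiation conditions with median-ratio and quantile scaling, Slc1a3 in proliferating cells with quantile scaling (0.081), and, over the fits without each sample in turn, Lhfpl3 under differentiation conditions (-0.0038 to 0.053) and in proliferating cells Enpp6 (-0.57 to 0.14), Map2 (-0.11 to 0.36), Neu4 (-0.49 to 0.42), Slc1a3 (-0.13 to 0.0067) and Vtn (-0.20 to 0.29). None of these changes passed an adjusted p of 0.05.

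Calls among the 9 genes under differentiation conditions were 4 in all scalings, pseudocounts and filters, and 1 to 5 without each sample in turn. By the rule of unadjusted p, taken here from limma, and over 2-fold they were 2 (Fa2h and Myrf). For the other lineage genes 14 calls became 6 by that rule and 5 to 11 without each sample in turn. Over all tested genes, calls in either direction went from 1357 of 19611 to 1145 of 19562 with median-ratio scaling and 1170 of 19582 with quantile scaling. Calls over all tested genes are not given for the other settings. Whether the losses are particular to the lineage was not tested. In proliferating cells their 0 calls became 1 (Lhfpl3) with a mean FPKM of at least 1, with median-ratio scaling and without Proliferating Ctrl 1, a range of 0 to 1, and the 9 genes had 0 throughout. For the difference of the effects the range without each sample in turn was 0 to 1 call for the 9 genes and for the others. Myelin stage minus early genes in proliferating cells turned from -0.29 to 0.10 with a pseudocount of 1 and ranged from -0.56 to -0.05 without each sample in turn, and under differentiation conditions from -0.93 to -0.55. The causes were not tested.

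Same-numbered samples deviated together only weakly, with correlations across genes of 0.02 to 0.11 in proliferating and 0.03 to 0.04 in differentiation samples. Under differentiation conditions every sample correlated best with its own number. In proliferating cells all did so except Ctrl 3 and NAD+ 2, which correlated best with each other (0.07). These correlations do not settle whether the numbers mark pairs, and the labels do not say. The main fits did not take the numbers as pairs. With the replicate block, calls under differentiation conditions were 5 of the 9 genes (Sox10 added) and 13 of the other lineage genes, of which 11 were among the 14, with Fyn, Gjc3 and Opalin lost and 2 gained. Pax6 and Kcnj8 also missed 0.05 with the block (adjusted p = 0.0933 and 0.0621), and the 1 call of the difference of the effects became 0. Scaling moved the median log2 fold change of all genes in that difference from -0.16 to -0.01 (median ratios) and -0.02 (quantiles). Depth is unknown, so genes below 1 FPKM carry an unknown counting error.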
